A study of Mus musculus with 6 samples.

Results

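Interferon-stimulated genes were measured in whole optic nerves of tumour-prone mice raised on 2 diets. The set holds 38 genes named by symbol, and the deposited table lists all 38, under 39 of its 35850 gene identifiers (Irgm1 has a second identifier). They fall into 10 genes of the Ifit, Oas and Mx families, here called the type I families, 10 Gbp and Irg genes, here called the type II families, 4 transcription factors, and 14 effectors and modifiers. No rule on a measured value chose the members, but they were chosen with earlier results of these data known.

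All 6 libraries came from mice of 1 genotype, GFAP-Cre; Nf1-Flox/R681X, at 6 weeks of age. These animals carry 1 floxed and 1 R681X allele of Nf1, the neurofibromatosis type 1 gene, and the Cre recombinase is driven by the GFAP promoter. The floxed allele is thus lost from cells in which that promoter has been active, while other cells of the nerve keep it. Such mice model optic pathway glioma, a low-grade tumour of the optic nerve. The control group (n = 3) had PicoLab 5053 chow, and the obesogenic group (n = 3) had AIN-76A with 58% of its energy as fat, with sucrose. According to the title of the series, exposure came through the mother. Both groups carry the same alleles, so no library with intact Nf1 enters the comparison. The labels number the libraries 1 to 3 in each group and do not say whether they came from separate animals or litters, so p-values here measure the spread between these libraries, which may be technical. Nf1 itself was at 3.67, 3.10 and 4.28 TPM (the deposited unit, transcript abundance scaled within each library) in the control libraries and at 2.71, 1.55 and 2.92 TPM in the obesogenic ones. Since the deletion is restricted to part of the cells and is shared by both diets, that level does not check the labels.

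Interferons are secreted proteins that cells release on sensing viral or self nucleic acid (type I, interferon alpha and beta) or that T and natural killer cells release (type II, interferon gamma). Type I receptors act through JAK1 and TYK2 to form a complex that includes STAT2 and IRF9 and binds the interferon-stimulated response element (ISRE); the type II receptor acts through JAK1 and JAK2 on genes with a gamma-activated site (GAS). Ifit, Oas and Mx genes are the classic targets of the first route, while Gbp and Irg GTPases are most strongly induced through the second, often by way of IRF1, although many members respond to both. In brain and optic nerve, microglia and astrocytes are the main resident cells that respond.

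Many of the promoters hold the core of the ISRE, the GAS or both, and 8 are printed. These 8 were chosen as clear cases of each motif and not as typical of their families. RefSeq promoters (GRCm38.p6, windows of 300 bases that span each annotated start) were matched for 27 of the 38 symbols, and for each printed gene the 160 bases that end just before the start are given, 5′ to 3′ on the gene's strand. The motifs were searched on both strands as GAAA followed after any 2 bases by GAAA, the core of the ISRE, and as TTCNNNGAA, the core of the GAS, where N is any base; the fixed letters of the second read the same on both strands. Capitals mark every match, and an ISRE core on the opposite strand reads TTTC, 2 bases, TTTC. Ifit3, Ifit1 and Isg15 each carry more than 1 ISRE core, which overlap in Isg15.
Ifit3, chr19:34583369-34583528, plus strand: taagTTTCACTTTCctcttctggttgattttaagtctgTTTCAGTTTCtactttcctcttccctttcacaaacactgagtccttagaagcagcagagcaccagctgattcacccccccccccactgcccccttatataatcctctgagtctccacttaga
Ifit1, chr19:34640729-34640888, plus strand: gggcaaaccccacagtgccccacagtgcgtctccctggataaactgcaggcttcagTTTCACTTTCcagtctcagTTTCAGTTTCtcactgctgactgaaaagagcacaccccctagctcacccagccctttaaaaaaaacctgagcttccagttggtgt
Isg15, chr4:156200819-156200978, minus strand: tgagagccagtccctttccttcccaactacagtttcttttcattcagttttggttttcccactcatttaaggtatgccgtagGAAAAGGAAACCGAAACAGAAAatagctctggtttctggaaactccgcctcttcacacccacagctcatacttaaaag

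Of the Gbp and Irg genes, Gbp2 is printed as a promoter with the ISRE core and no GAS core, and Gbp7, Irgm2 and Igtp as promoters that hold both.
Gbp2, chr3:142620503-142620662, plus strand: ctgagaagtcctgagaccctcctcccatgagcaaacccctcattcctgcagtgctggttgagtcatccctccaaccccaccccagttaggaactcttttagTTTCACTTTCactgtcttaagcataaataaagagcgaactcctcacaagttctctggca
Gbp7, chr3:142530176-142530335, plus strand: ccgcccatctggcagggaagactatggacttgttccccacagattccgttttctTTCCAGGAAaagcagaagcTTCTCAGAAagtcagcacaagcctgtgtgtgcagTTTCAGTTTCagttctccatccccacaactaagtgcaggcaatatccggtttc
Irgm2, chr11:58214817-58214976, plus strand: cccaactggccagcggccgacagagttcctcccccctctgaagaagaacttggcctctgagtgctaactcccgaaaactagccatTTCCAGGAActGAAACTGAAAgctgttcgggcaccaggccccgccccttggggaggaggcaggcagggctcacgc
Igtp, chr11:58199396-58199555, plus strand: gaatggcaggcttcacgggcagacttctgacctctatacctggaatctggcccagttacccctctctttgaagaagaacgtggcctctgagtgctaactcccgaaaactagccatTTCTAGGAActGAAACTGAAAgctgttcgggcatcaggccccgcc

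Irf1, whose protein product binds ISRE-like sites, is printed as a promoter with a GAS core and no ISRE core.
Irf1, chr11:53769854-53770013, plus strand: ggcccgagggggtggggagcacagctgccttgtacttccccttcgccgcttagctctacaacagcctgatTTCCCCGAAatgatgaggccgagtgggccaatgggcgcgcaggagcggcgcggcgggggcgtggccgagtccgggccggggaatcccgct

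Over the full 300-base promoters, 18 of the 27 matched symbols (66.7%) held an ISRE core, against 3.99% of all 27025 RefSeq symbols. A GAS core was present in 10 of 27 (37.0%), against 9.55% of all symbols. By family, the ISRE core was found in 4 of 7 type I genes, 7 of 7 type II genes, 1 of 4 transcription factors and 6 of 9 effectors. The GAS core was found in 2 of 7 type I genes, 4 of 7 type II genes, 1 of 4 transcription factors and 3 of 9 effectors. The ISRE core was thus not restricted to the type I families. Ifi44, Irf7, Irf9, Oasl1, Oasl2 and Xaf1 held neither string in this window. A match is a string of letters and not a measured site.

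Obesogenic library 2 stood apart from the other 5 before any comparison of diets. Immunoglobulin genes held a 20.6% share of the listed TPM there and from 0.0044% to 0.0439% in the others. Markers of T and natural killer cells summed to 403 TPM there, with 15 of 15 markers above every control library and none at 0, against 11.8 to 25.5 TPM in the control libraries and 9.12 and 21.1 TPM in obesogenic libraries 1 and 3. Markers of B and plasma cells summed to 75720 TPM (11 of 12 above every control; Pax5, which plasma cells do not express, was listed at 0), against 55.3 to 164 TPM elsewhere. Monocyte and neutrophil markers summed to 1227 TPM, of which Ly6c2 made up 1155 TPM (4 of 9 above every control; S100a9 listed at 0), against 13.3 to 86.7 TPM elsewhere. In bulk tissue, more cells of a type and more RNA per cell cannot be told apart. The counts of genes, the family medians and most of the log2 changes printed are therefore given without that library too, and the part of these cell types in the interferon gene levels was not tested.

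No member passed the test between the diets. limma on log2(TPM + 1), with Benjamini-Hochberg adjustment over 14364 genes at 1 TPM or more in at least 3 of the 6 libraries, called 0 of the 36 members kept, and 0 reached an unadjusted p below 0.05. Oas2, Igtp and the second Irgm1 identifier were too low to be kept. Over all genes kept, the same test called 0% higher and 0.00696% lower on the obesogenic diet, and 11% had an unadjusted p below 0.05. Adjusted p of the members ran from 0.544 for Usp18 to 0.939 for Ifih1. The libraries of the diets overlapped for all 38 members, whereas 8.88% of all genes kept were higher without overlap and 7.45% lower. Without obesogenic library 2 the test called 4.89% of genes higher and 1.25% lower, and still 0 members, with 1 at an unadjusted p below 0.05 (24% of all genes). Without obesogenic library 3 it called 0% of genes in either direction, and 14 members had an unadjusted p below 0.05 (7.44% of all genes). With array weights, which count a library less the more it departs from the fit, 10.5% of genes were called higher and 3.89% lower, and again 0 members, with 5 at an unadjusted p below 0.05 (32.6% of all genes).

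The members varied mainly by library. Obesogenic library 2 was the highest of the 6 for 37 of 38 members (12.7% of all genes kept); the exception was Mx1. It was above every control library for all 38 (22.7% of all genes kept) and below every control for none (44.2%). It was at least 2 log2 units above the control mean for 28 members (2.73%), against 0 in obesogenic library 1 (2.06%) and 0 in obesogenic library 3 (4.8%). Obesogenic library 3 was the lowest of the 6 for 26 members (17.2% of all genes kept) and below every control for the same number (27.7%), and no member there was above every control (43.4%). Obesogenic library 1 lay between these, above every control for 15 members (46.5% of all genes kept) and below every control for 2 (18%). Among the controls, library 2 was the highest for 33 members (29.8%). The 3 obesogenic libraries thus held both the highest and, for most members, the lowest level in the study.

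**Figure D1:**
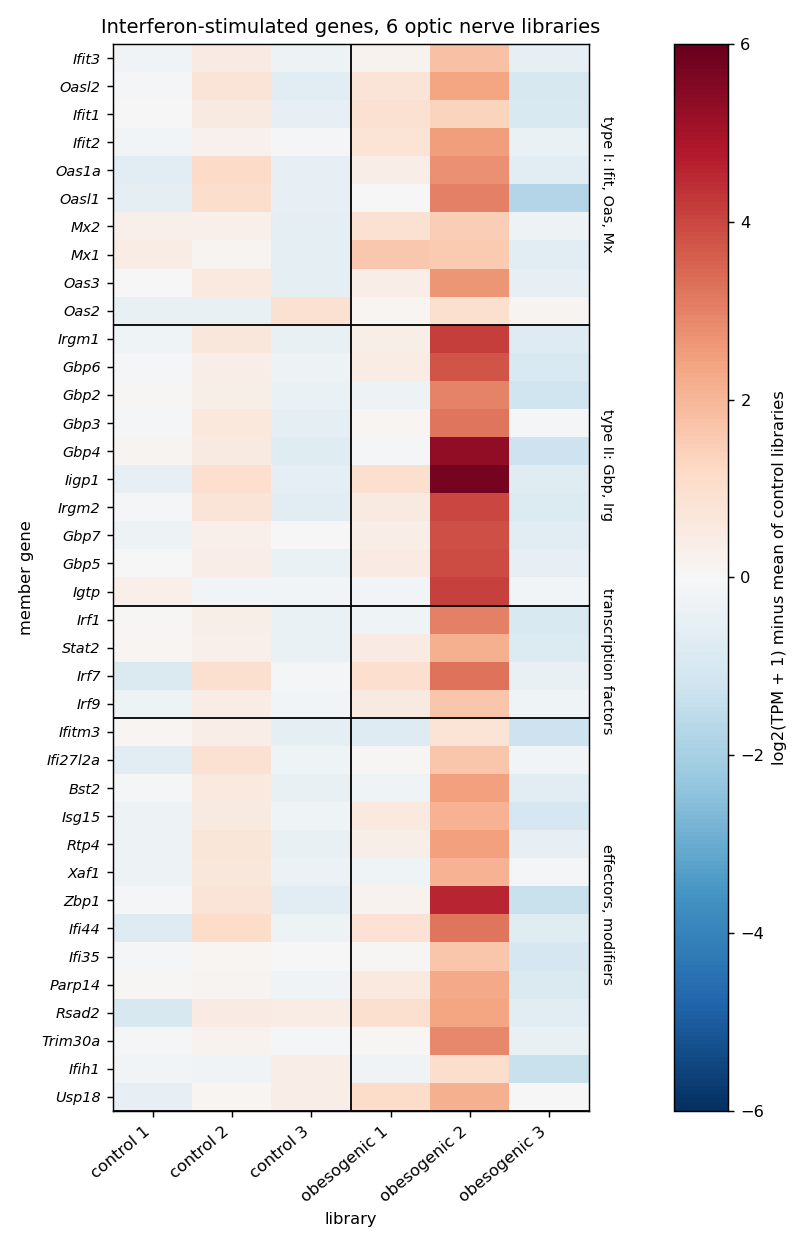
Each row is 1 of the 38 members and each column 1 library; colour gives log2(TPM + 1) minus the mean of the 3 control libraries, and the vertical line separates control (left) from obesogenic libraries (right). Obesogenic library 2 is the highest of the 6 for 37 members and obesogenic library 3 the lowest for 26.

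Of the type I families, the 3 Ifit genes and Oasl2 were the most abundant members. Ifit3 (ENSMUSG00000074896), which with the other IFIT proteins binds viral RNA lacking host cap marks, was at 133, 216 and 123 TPM in control libraries 1 to 3 and at 179, 512 and 107 TPM in obesogenic libraries 1 to 3. Only obesogenic library 2 left the control range upward, at 3.26-fold of the control mean, and library 3 left it downward. The log2 change was 0.49 (SE 0.55, limma adjusted p = 0.794), and it was -0.13 without obesogenic library 2 (adjusted p = 0.834). Ifit1, which recognises such RNA directly, was at 48.3, 70.6 and 34.0 TPM on the control diet and at 92.7, 123 and 25.5 TPM on the obesogenic diet. Here both obesogenic libraries 1 and 2 exceeded every control, at 1.82-fold and 2.42-fold of the control mean, and library 3 was below them all. The log2 change of Ifit1 was 0.44 (SE 0.58, adjusted p = 0.829), and 0.001 without obesogenic library 2 (adjusted p = 0.999). Ifit2, a partner of Ifit3 that has also been tied to control of cell death, was at 22.6, 30.3 and 23.5 TPM in control libraries and at 45.8, 146 and 18.7 TPM in obesogenic ones. It showed the same order of the obesogenic libraries, with 5.74-fold in library 2. Its log2 change was 0.97 (SE 0.65, adjusted p = 0.645), and 0.21 without that library (adjusted p = 0.772).

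The Oas genes encode enzymes, or relatives of them, that sense double-stranded RNA and activate RNase L. Oasl2 was the most abundant of these, at 40.6, 73.7 and 26.1 TPM in the control libraries and at 74.7, 224 and 21.6 TPM in the obesogenic ones. Obesogenic library 1 was barely above the highest control and library 2 was 4.78-fold of the control mean. Between 80.0% and 100% of Oasl2 TPM in each library was assigned to transcripts annotated as non-coding or decayed (retained intron, processed or nonsense-mediated decay), so these values are not a measure of coding mRNA. Oas1a was at 5.61, 21.3 and 6.13 TPM in the control libraries and at 12.6, 68.2 and 5.46 TPM in the obesogenic ones, 6.18-fold of the control mean in library 2. The control libraries of Oas1a themselves spanned a wide range, with library 2 above obesogenic library 1. Oasl1, Oas3 and Oas2 were scarcer: their control libraries held 0 to 7.34 TPM, and obesogenic library 2 held 31.6 TPM of Oasl1, 11.2 TPM of Oas3 and 1.63 TPM of Oas2.

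Mx1 and Mx2 encode dynamin-like GTPases that block virus replication, and both were low. Mx1 was at 0.66 to 2.39 TPM in the control libraries and at 6.61, 6.47 and 0.57 TPM in the obesogenic ones, the 1 member whose highest library was obesogenic library 1. Mx2 was at 1.07 to 2.86 TPM in the control libraries and at 4.97, 7.67 and 1.53 TPM in the obesogenic ones. Obesogenic libraries 1 and 2 exceeded every control for both genes, and the Mx1 values of libraries 1 and 2 were nearly equal, at 4.08-fold and 3.99-fold of the control mean. Part of the transcripts of both genes is annotated as polymorphic pseudogene, since common laboratory strains carry disrupted Mx alleles, and 0% to 94.9% of the Mx1 TPM in a library was assigned to transcripts annotated as non-coding or decayed. Log2 changes of the 9 type I genes kept had adjusted p from 0.645 to 0.923.

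The type II families differed more sharply between libraries. Irgm1 (ENSMUSG00000046879), an immunity-related GTPase that regulates the other Irg proteins and autophagy, was at 31.8, 61.2 and 27.5 TPM in the control libraries and at 48.3, 688 and 21.6 TPM in the obesogenic ones. Obesogenic library 2 was 17.1-fold of the control mean, whereas library 1 lay within the control range and library 3 below it. The log2 change was 1.24 (SE 1.15, adjusted p = 0.749), and -0.22 without obesogenic library 2 (adjusted p = 0.804). The second Irgm1 identifier, ENSMUSG00000116444, was listed at 0 except for 1.56 TPM in obesogenic library 1.

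Guanylate-binding proteins are large GTPases that attack the membranes of intracellular microbes. Gbp6 was at 21.0, 29.7 and 17.9 TPM in the control libraries and at 31.2, 315 and 11.3 TPM in the obesogenic ones. Gbp2 was at 30.2, 36.6 and 21.4 TPM in the control libraries and at 23.1, 236 and 12.1 TPM in the obesogenic ones. In both, obesogenic library 2 was far above all others (13.8-fold and 8.03-fold of the control mean) and library 3 the lowest. Gbp3 was at 20.7, 34.9 and 14.5 TPM in the control libraries and at 23.9, 210.4 and 20.9 TPM in the obesogenic ones. Its obesogenic libraries 1 and 3 both lay within the control range. Gbp4 was at 6.92, 9.21 and 3.23 TPM in the control libraries and at 5.61, 274 and 1.95 TPM in the obesogenic ones. At 42.5-fold of the control mean in obesogenic library 2, Gbp4 gave a log2 change of 1.32 (SE 1.54, adjusted p = 0.802), and -0.67 without that library (adjusted p = 0.475). Transcripts annotated as non-coding or decayed took 51.6% to 72.8% of the Gbp6 TPM and 0% to 83.7% of the Gbp4 TPM (62.2% in obesogenic library 2).

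Of the remaining type II members, Gbp5, Gbp7 and Irgm2 held 3.55 to 19.5 TPM in the control libraries and 89.4, 156 and 192 TPM in obesogenic library 2. Igtp, also known as Irgm3, was listed at 0 in 4 libraries, with 0.36 TPM in control library 1 and 17.8 TPM in obesogenic library 2. Iigp1, an effector GTPase of the Irg family chosen here after its values were seen, had the largest ratio among members with a control level to divide by, 59.1-fold of the control mean in obesogenic library 2: it was at 2.13, 7.88 and 2.01 TPM in the control libraries and at 7.52, 237 and 1.62 TPM in the obesogenic ones. Adjusted p of the 9 type II genes kept ran from 0.685 to 0.891.

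Set side by side per library, the families moved together in 5 libraries and apart in 1. The median over the 10 type I genes of log2(TPM + 1) minus the control mean was -0.11, 0.51 and -0.51 in control libraries 1 to 3, and 0.60, 2.05 and -0.58 in obesogenic libraries 1 to 3. Over the 10 type II genes the median was -0.07, 0.48 and -0.43 for controls 1 to 3, then 0.38, 3.94 and -0.76 for obesogenic libraries 1 to 3. All genes kept had medians between -0.16 and 0.19 in every library. The type I median minus the type II median was therefore within -0.08 and 0.04 in the controls, 0.22 and 0.18 in obesogenic libraries 1 and 3, and -1.89 in obesogenic library 2. In that library the type I genes ranged from 0.94 to 3.03 above the control mean (highest Oasl1) and the type II genes from 3.00 (Gbp2) to 5.76 (Iigp1), so the ranges overlapped only at their ends. All 10 type II genes but 5 of the 10 type I genes were at least 2 log2 units above the control mean there.

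Averaged over libraries, the obesogenic minus control difference of the median was 0.73 for the type I and 1.20 for the type II families, each smaller than the pooled SD between libraries (1.00 and 1.76). Without obesogenic library 2 the differences were 0.05 and -0.18. The type I minus type II median differed between diets by -0.47, with a pooled SD of 0.86, and by 0.23 without that library. A value that rests on 1 library has no test, and an exact permutation test of 3 against 3 libraries cannot give a p below 0.1.

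Most paralogs outside the set shared the high level of obesogenic library 2, which was the highest of the 6 for 7 of 8 Gbp and Irg and 6 of 10 Ifit and Oas paralogs. The low level of obesogenic library 3 was shared in part: it was the lowest for 5 of 8 and 0 of 10. The other Gbp and Irg genes at 1 TPM or more in some library (7 genes) had a median of 4.68 in obesogenic library 2, and the other Ifit and Oas genes (6 genes) a median of 1.22. In obesogenic library 3 these medians were -1.38 and -0.28, so the paralogs parted there too, by 1.10, where the members differed by 0.18. Tgtp2, an Irg GTPase, was at 29.1, 47.2 and 17.7 TPM in the control libraries and at 30.5, 975 and 9.72 TPM in the obesogenic ones. Its neighbour Tgtp1 was at 14.2, 30.1 and 8.55 TPM in the control libraries and at 12.2, 422.5 and 3.07 TPM in the obesogenic ones. Both repeated the Irg pattern, with 31.1-fold and 24.0-fold of the control mean in obesogenic library 2 and the lowest level in library 3. Ifit3b was at 31.8, 61.8 and 34.2 TPM in the control libraries and at 63.0, 149 and 38.2 TPM in the obesogenic ones, 3.49-fold in library 2, close to the 3.26-fold of Ifit3. Ifit1bl1 did not follow, at 0.66, 1.53 and 35.6 TPM in the control libraries and at 0.71, 4.01 and 1.23 TPM in the obesogenic ones. Tgtp1 and Tgtp2, Ifit3 and Ifit3b, and some of the Gbp and Oas1 genes are close copies, so the division of reads between such copies is uncertain. None of the 11 paralogs kept passed the test (adjusted p from 0.618 to 0.958).

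**Figure D2:**
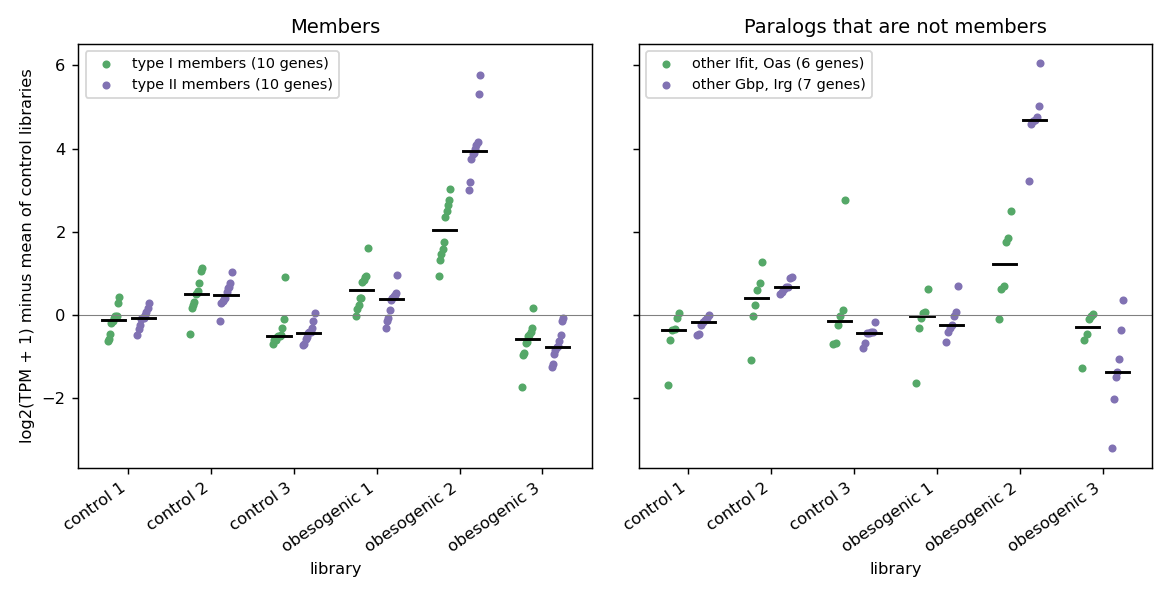
Points are genes, plotted per library as log2(TPM + 1) minus the mean of the 3 control libraries, for the type I and type II members (left) and for paralogs outside the set at 1 TPM or more in some library (right); black bars are medians. Type II genes lie above type I genes in obesogenic library 2 (medians 3.94 and 2.05 for the members, 4.68 and 1.22 for the paralogs), and the medians of the members differ by at most 0.22 elsewhere.

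The 4 transcription factors showed both patterns. Irf1, the factor most directly induced through the GAS and a driver of Gbp genes, was at 27.8, 33.9 and 19.9 TPM in the control libraries and at 21.9, 225 and 13.5 TPM in the obesogenic ones. Obesogenic library 2 was 8.26-fold of the control mean, library 1 lay within the control range and library 3 below it. Irf7, the factor that amplifies type I interferon production, was at 8.78, 33.3 and 15.9 TPM in the control libraries and at 35.2, 170.5 and 11.98 TPM in the obesogenic ones. It was 8.82-fold of the control mean in library 2, and library 1 was just above the highest control. The Irf7 log2 change was 1.28 (SE 0.91, adjusted p = 0.665), falling to 0.28 without obesogenic library 2. From 10.5% to 69.5% of the Irf7 TPM was assigned to transcripts annotated as non-coding or decayed.

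Stat2 and Irf9 encode the subunits that are particular to the type I complex. Stat2 was at 36.8, 41.4 and 24.95 TPM in the control libraries and at 47.7, 149.9 and 18.7 TPM in the obesogenic ones. Irf9 was at 24.95, 43.3 and 27.5 TPM in the control libraries and at 45.0, 99.8 and 25.5 TPM in the obesogenic ones. Their ratios in obesogenic library 2, 4.36-fold and 3.13-fold, were the lower pair among the 4 factors. Adjusted p for the 4 ran from 0.665 to 0.863. Without that library the log2 change of Stat2 was -0.16, that of Irf1 -0.60 and that of Irf9 0.13.

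The Stat2 total was divided unevenly among its transcripts from library to library. Stat2-202, a protein-coding transcript chosen after its values were seen, was at 19.4, 6.83 and 18.6 TPM in the control libraries, 52.6%, 16.5% and 74.7% of the gene, and was listed at 0 in all 3 obesogenic libraries. Stat2-201, the other protein-coding transcript, was at 1.87, 18.7 and 0.98 TPM in the control libraries and at 29.4, 98.9 and 13.7 TPM in the obesogenic ones. It made up 5.08%, 45.2% and 3.92% of the gene on the control diet and 61.6%, 66.0% and 73.5% on the obesogenic diet. The 2 transcripts traded places within the controls too: library 2 had the most of Stat2-201 and the least of Stat2-202. The log2 change of Stat2-202 was -3.87 (SE 0.46) with an adjusted p of 0.126 over 35408 transcripts kept, and that of Stat2-201 was 2.88 (SE 1.01) with an adjusted p of 0.505, so neither passed (0.00565% of transcripts did). Of 150 member transcripts listed and 76 kept, 0 passed. Stat2-202 was the 1 member transcript above 0 in every control and at 0 in every obesogenic library, a pattern shared by 0.226% of all transcripts kept. In the other direction, 5 member transcripts were higher without overlap, of which 4 were listed at 0 in every control (Gbp2-202, Oasl1-204, Oasl2-202 and Parp14-203, named after their values were seen); they reached at most 6.04 TPM (Gbp2-202 in obesogenic library 2) and were too low to be kept. The shares of all transcripts higher without overlap, or at 0 in the controls alone, were not counted. These counts of member transcripts therefore have no background beside them and are not read as a result. A listed 0 in such a table can be a failed estimate, and whether it was one here was not tested.

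**Figure D3:**
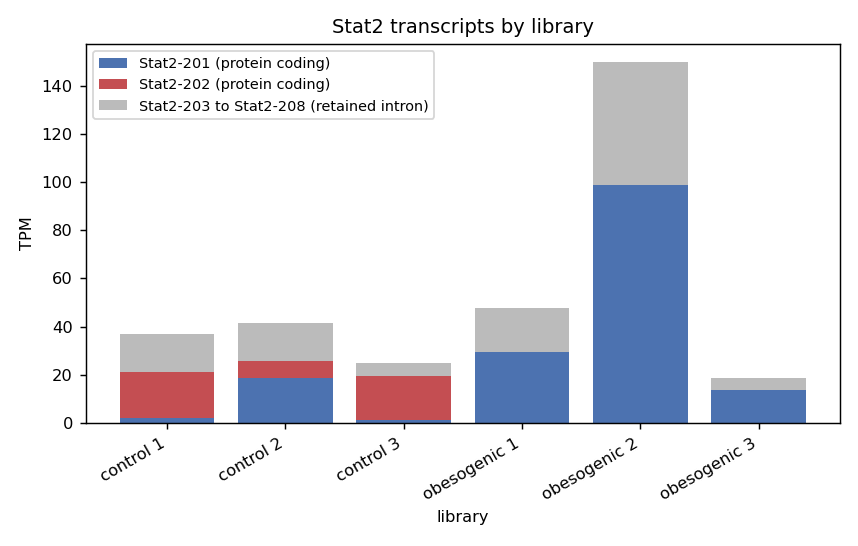
Stacked bars give the TPM of Stat2 in each library by transcript: the protein-coding Stat2-201 and Stat2-202 and the sum of the 6 retained-intron transcripts. Stat2-202 is present in the 3 control libraries (6.83 to 19.4 TPM) and listed at 0 in the 3 obesogenic ones.

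Among effectors, Ifitm3, a membrane protein that blocks virus entry, was the most abundant member. It was at 661, 809 and 420.3 TPM in the control libraries and at 357, 1073 and 258 TPM in the obesogenic ones. Obesogenic libraries 1 and 3 were below every control, and library 2 was 1.70-fold of the control mean, the smallest ratio of any kept member in that library. Its log2 change was -0.39 (SE 0.53, adjusted p = 0.837), and -1.001 without obesogenic library 2 (adjusted p = 0.108). Ifitm3 and Ifih1 were the 2 members whose mean log2 level was lower on the obesogenic diet; the other 36 had a higher mean (57.7% of all genes kept).

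Isg15, a ubiquitin-like protein that is attached to others, was at 32.9, 60.7 and 34.4 TPM in the control libraries and at 61.3, 175 and 19.7 TPM in the obesogenic ones. Its obesogenic libraries stood above, far above and below the controls, and the log2 change was 0.54 (SE 0.71, adjusted p = 0.830). Bst2, the tetherin that holds budding viruses at the cell surface, was at 69.9, 112.5 and 55.2 TPM in the control libraries and at 62.8, 418 and 47.0 TPM in the obesogenic ones. Ifi27l2a, a mitochondrial protein often used as a marker of interferon response in the ageing or inflamed brain, was at 87.6, 259 and 116 TPM in the control libraries and at 145, 440.5 and 125 TPM in the obesogenic ones. For both genes obesogenic library 1 lay within the control range, and only library 2 stood above it (5.28-fold and 2.85-fold of the control mean).

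Rtp4, a chaperone of receptors that is strongly induced by type I interferon, was at 28.2, 58.9 and 25.1 TPM in the control libraries and at 44.5, 193 and 24.6 TPM in the obesogenic ones. Xaf1, tied to cell death after interferon, was at 19.6, 38.9 and 18.7 TPM in the control libraries and at 20.1, 107 and 22.4 TPM in the obesogenic ones. Each had obesogenic library 2 alone above the controls, at 5.15-fold and 4.15-fold. Of the other 8 effectors, Zbp1, the sensor of left-handed nucleic acid, had the largest ratio in obesogenic library 2 (25.2-fold, 147 TPM against 2.99 to 9.69 TPM in the controls). Usp18, the protease that removes ISG15 and damps the type I receptor, had the lowest adjusted p of the members (0.544), at 1.78, 3.32 and 4.19 TPM in the control libraries and at 7.57, 16.2 and 2.87 TPM in the obesogenic ones. Zbp1 and Usp18 were named after their values were seen. In obesogenic library 2, Ifi44, Ifi35, Parp14, Rsad2, Trim30a and Ifih1 held 13.5 to 64.5 TPM, 2.19-fold (Ifih1) to 9.12-fold (Trim30a) of their control means. As for Oasl2, all of the Ifi35 TPM and 53.8% to 87.2% of the Usp18 TPM was assigned to transcripts annotated as non-coding or decayed.

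The interferons themselves were at or near 0. Of 21 ligand genes listed, 17 were at 0 in all 6 libraries and none was kept. Ifng, the type II interferon, was listed at 0 in the 3 control libraries and in obesogenic library 1, and stood at 4.93 and 0.98 TPM in obesogenic libraries 2 and 3. Ifnb1 was listed at 0 except for 0.17 TPM in obesogenic library 2, and Ifnz was at 0 to 0.38 TPM in all. Obesogenic library 3, with the second value of Ifng, held the lowest level of 8 of the 10 type II genes (17.2% of all genes kept). The part of Ifng in the levels of these genes was not tested.

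Of the 6 receptor genes, 5 were kept, and they were at 1.14-fold (Ifnar2) to 2.64-fold (Il10rb) of the control mean in obesogenic library 2. Ifngr1, the ligand-binding chain of the type II receptor, varied most and was named after its values were seen: it was at 11.3, 9.45 and 5.649 TPM in the control libraries and at 1.59, 19.2 and 3.05 TPM in the obesogenic ones. Ifnar2, a chain of the type I receptor, was at 97.3, 105 and 71.0 TPM in the control libraries and at 54.6, 104 and 49.97 TPM in the obesogenic ones, with libraries 1 and 3 below the controls. Ifngr2, a chain of the type II receptor, was at 22.1, 29.6 and 19.8 TPM in the control libraries and at 19.2, 41.5 and 33.0 TPM in the obesogenic ones. None of the 5 receptor genes kept passed (adjusted p from 0.659 to 0.905). Jak1, the kinase shared by both receptors, was at 62.8, 67.9 and 58.4 TPM in the control libraries and at 83.1, 87.0 and 75.3 TPM in the obesogenic ones, higher without overlap by 0.37 on the log2 scale (SE 0.16), with an adjusted p of 0.473 (0.33 without obesogenic library 2, adjusted p = 0.252).

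Sensors and adaptors upstream of interferon gave 0 passes of 11 kept. Irf3, the factor that starts type I interferon transcription, was at 68.8, 60.4 and 56.6 TPM in the control libraries and at 62.3, 64.1 and 49.7 TPM in the obesogenic ones. Tbk1, the kinase that activates it, was at 25.4, 22.3 and 34.2 TPM in the control libraries and at 39.96, 33.0 and 45.5 TPM in the obesogenic ones. Neither stood out in obesogenic library 2, but that library was the highest of the 6 for 7 of the 12 genes listed (12.7% of all genes kept). Mavs, the mitochondrial adaptor of RNA sensing, named after its values were seen, was at 10.5, 14.9 and 12.5 TPM in the control libraries and at 7.85, 3.996 and 2.48 TPM in the obesogenic ones, lower without overlap (log2 change -1.33, SE 0.39, adjusted p = 0.330; -1.28 without obesogenic library 2, adjusted p = 0.135). Tlr7, an endosomal sensor of single-stranded RNA made by microglia and other immune cells and also named after its values were seen, was higher without overlap, at 0.86, 0.29 and 0 TPM in the control libraries and at 1.80, 19.6 and 6.03 TPM in the obesogenic ones (log2 change 2.47, SE 0.71, adjusted p = 0.321).

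Inhibitors gave 0 passes of 6 kept. Pias1, an inhibitor of JAK-STAT signalling, was at 36.6, 40.6 and 35.1 TPM in the control libraries and at 53.3, 47.2 and 46.4 TPM in the obesogenic ones, higher without overlap by 0.38 on the log2 scale (SE 0.17, adjusted p = 0.486; 0.40 without obesogenic library 2, adjusted p = 0.203). Ptpn6, a phosphatase that damps JAK signalling and is mostly made by blood cells, was at 22.5, 28.3 and 17.6 TPM in the control libraries and at 16.4, 121 and 9.21 TPM in the obesogenic ones. Socs1, the feedback inhibitor induced by both interferon types and named after its values were seen, was at 2.23, 2.67 and 3.10 TPM in the control libraries and at 2.66, 24.99 and 1.47 TPM in the obesogenic ones. Ptpn6 and Socs1 thus had obesogenic library 2 highest and library 3 lowest, as most type II genes did, and Pias1 did not.

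Other interferon-induced genes outside the set (37 listed, 30 kept) also gave 0 passes, and obesogenic library 2 was the highest of the 6 for 33. Lgals3bp, a secreted glycoprotein, was at 88.9, 169 and 79.6 TPM in the control libraries and at 106.5, 426 and 85.1 TPM in the obesogenic ones. Ifitm2, a relative of Ifitm3, was at 392, 431 and 300.1 TPM in the control libraries and at 193, 202 and 168 TPM in the obesogenic ones. Its neighbour Ifitm1, named after its values were seen, was at 203, 215 and 163 TPM in the control libraries and at 75.0, 79.6 and 83.6 TPM in the obesogenic ones. Both were lower without overlap and were not raised in obesogenic library 2, unlike Ifitm3. Of the 30 genes kept, 2 (Ifitm1 and Ifitm2) were lower without overlap, a share near the 7.45% of all genes kept. The log2 change of Ifitm1 was -1.27 (SE 0.18, adjusted p = 0.132) and that of Ifitm2 -0.98 (SE 0.20, adjusted p = 0.218). Without obesogenic library 2 they were -1.27 (adjusted p = 0.0202) and -1.04 (adjusted p = 0.0338), past the threshold. In that fit 1.25% of all genes were called lower. Ifitm genes are also made by endothelial and meningeal cells: markers of endothelial cells summed to 643 to 965 TPM in the control libraries and to 310.0 to 372 TPM in the obesogenic ones, with 8, 8 and 7 of 8 markers below every control in obesogenic libraries 1 to 3. Markers of meningeal fibroblasts summed to 1559 to 2255 TPM and to 603 to 765 TPM, with 10, 8 and 10 of 10 below every control. The part of these cells in the Ifitm levels was not tested.

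In the opposite direction, 3 of the 30 other interferon-induced genes kept were higher without overlap on the obesogenic diet, a share near the 8.88% of all genes kept, and all 3 were named after their values were seen. Adar, the RNA-editing enzyme that keeps self RNA from being sensed, was at 19.3, 16.5 and 15.7 TPM in the control libraries and at 39.6, 34.3 and 53.6 TPM in the obesogenic ones. Its highest library was obesogenic library 3, where most members were lowest. The change of Adar was 1.24 on the log2 scale (SE 0.23, adjusted p = 0.179), and 1.38 without obesogenic library 2 (adjusted p = 0.0255). Without that library 4.89% of all genes were called higher. Cmpk2, a mitochondrial nucleotide kinase next to Rsad2 in the genome, was at 13.6, 21.7 and 18 TPM in the control libraries and at 34.9, 75.3 and 29.7 TPM in the obesogenic ones (log2 change 1.25, SE 0.37, adjusted p = 0.338; 0.85 without obesogenic library 2, adjusted p = 0.0983). Nlrc5, the activator of MHC class I genes, was at 0.70, 1.595 and 1.34 TPM in the control libraries and at 2.33, 68.9 and 2.28 TPM in the obesogenic ones (log2 change 2.07, SE 1.13, adjusted p = 0.555). Without obesogenic library 2 the log2 change of Nlrc5 was 0.61 (adjusted p = 0.344). Of the 3, only Nlrc5 had a ratio in obesogenic library 2 (57.0-fold of the control mean) as large as those of the type II members. Over all pathway lists together, 6 genes had an unadjusted p below 0.05 and 0 passed. They were 2 of 11 sensors and adaptors and 4 of 30 other interferon-induced genes kept. Every other pathway list had 0, and the share over all genes kept was 11%.

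**Figure D4:**
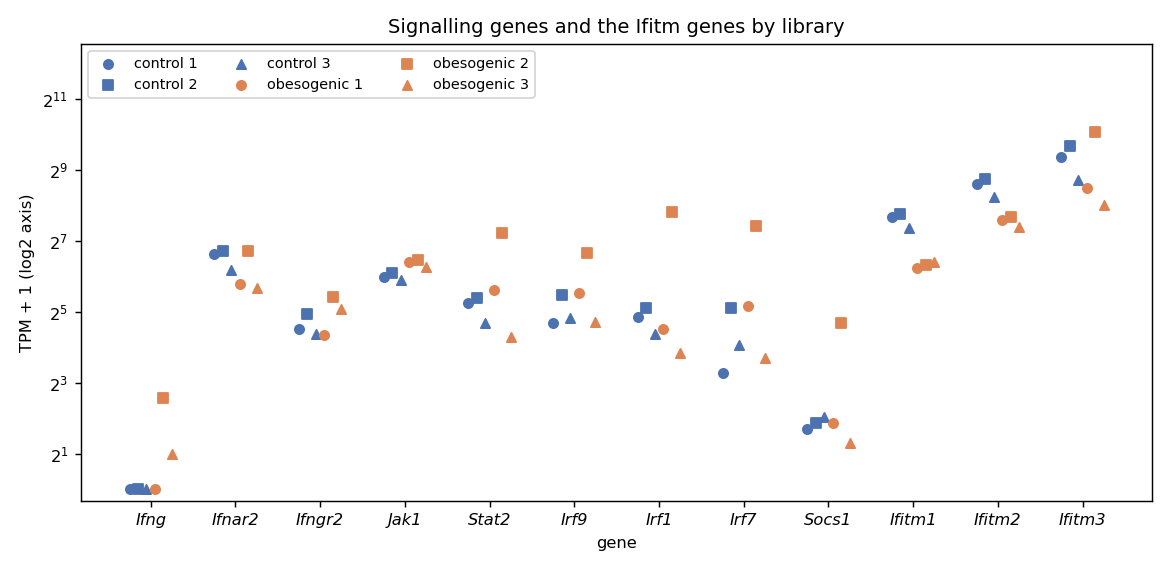
TPM + 1 on a log2 axis for the ligand Ifng, receptor chains, Jak1, Stat2 and the IRF factors, Socs1 and the 3 Ifitm genes; each point is 1 library, with colours for the diets and marker shapes for libraries 1 to 3. Irf1 reaches 225 TPM in obesogenic library 2, while Ifitm1 and Ifitm2 are lower in all 3 obesogenic libraries than in any control.

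The summed level of the members can be set beside the cell markers by library, and any link between them was not tested. All members together summed to 1431, 2201 and 1131 TPM in the control libraries and to 1508, 6980 and 856 TPM in the obesogenic ones. Type I genes summed to 258, 426 and 218 TPM and then to 422, 1132 and 182 TPM; type II genes summed to 136, 218 and 107 TPM and then to 177, 2415 and 84.5 TPM. Control library 2, the highest control for most members, also had the highest sum of T and natural killer cell markers (25.5 TPM) and of B and plasma cell markers (164 TPM) among the controls. Obesogenic library 1 had a type I sum of 422 TPM, near that of control library 2, and a T and natural killer marker sum of 9.12 TPM, below every control. Microglial markers summed to 786 to 1202 TPM in the control libraries and to 808, 3341 and 743 TPM in the obesogenic ones. In obesogenic library 2, 6 of 10 were above every control, 2 (Gpr34 and Siglech) were below every control, and none was at 0. C1qa (1034 TPM) and C1qb (1153 TPM) made up most of the sum there. Markers of plasmacytoid dendritic cells, the main makers of type I interferon, summed to 251 to 309 TPM in the control libraries and to 270.1, 815 and 194 TPM in the obesogenic ones. In obesogenic library 2, 5 of 8 were above every control. Of these, Bst2 (418 TPM), itself a member, and Irf8 (178 TPM) are interferon-induced. Siglech at 7.50 TPM and Tcf4 at 135 TPM were below every control there. Border macrophage markers summed to 142 to 162 TPM in the control libraries and to 80.6, 40.7 and 63.5 TPM in the obesogenic ones. Markers of astrocytes, which include Gfap itself, summed to 5304 to 7040 TPM and to 6225, 2697 and 4088 TPM. Those of mature oligodendrocytes, the most abundant cells of the nerve, summed to 61710 to 69600 TPM and to 54980, 26820 and 28110 TPM. Oligodendrocyte precursor markers summed to 401 to 494 TPM and to 453, 268 and 321 TPM, and neuronal markers to 90.9 to 159 TPM and to 323, 185 and 892 TPM. Astrocyte and oligodendrocyte sums were thus lowest in obesogenic libraries 2 and 3, the libraries in which most members were highest and lowest, respectively.

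**Figure D5:**
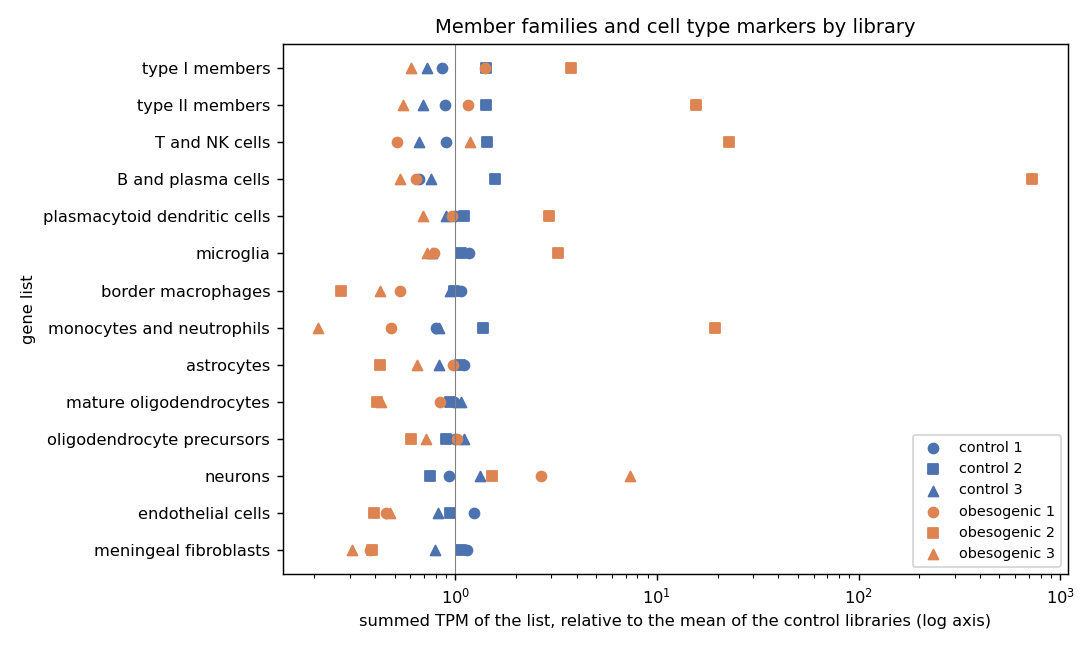
Each point is 1 library's summed TPM of a gene list relative to the mean of the 3 control libraries, on a log axis, for the type I and type II members and for each cell marker list. Obesogenic library 2 lies to the right for the type II members (2415 TPM), T and natural killer cells (403 TPM) and B and plasma cells (75720 TPM), and to the left for border macrophages (40.7 TPM).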

How the data were processed

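Bulk polyA RNA of optic nerve was measured in 6 libraries (SMART-Seq mRNA kit, per the labels' protocols). The deposited table gives TPM per transcript, computed by the authors; tools listed in the submitters' processing notes, without their roles, are STAR 2.7.9a, featureCounts 2.0.3, Subread and DRAGEN. The tool behind the TPM, the genome build and the annotation were not given in the sources used here. TPM carries no depth, so the depth of each library is unknown and no counting interval or floor is given; a 0 is a value listed at 0. The listed TPM sum to 788456 to 832193 per library.

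The table has 110028 lines. Repeated transcript identifiers were dropped (109383 transcripts left) and TPM were summed per gene identifier. Genes at 1 TPM or more in at least 3 of 6 libraries were kept (14364). limma 3.58.1 in R 4.3.3 (lmFit, eBayes with trend, no covariate) was fitted on log2(TPM + 1), with a pseudocount of 1 that understates the change of low genes, and Benjamini-Hochberg adjustment over all genes kept (threshold 0.05). Transcripts were fitted the same way. The fit was tested on simulated data that gave both groups the spread of the control libraries. That does not check its power for the members, most of which spread more widely in the obesogenic libraries. Ratios of 1 library to the control mean are on the TPM scale; folds have no test.

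The members and all gene and marker lists were chosen with earlier results of these data known. Values in every library are given for the 5 most abundant genes of the type I and of the type II families, 4 transcription factors and 6 effectors, for any member that passed or did not overlap (none), for the 2 most abundant genes of each pathway list, and for Ifng and Ifnb1 (1 gene of this rule is not reported here); other genes named with values were chosen after their values were seen. Promoters are RefSeq's, on GRCm38.p6. Alternatives were other pseudocounts, no filter, upper-quartile scaling, rescaling without immunoglobulin genes, the most abundant transcript in place of the sum, no trend, array weights, a replicate block, and leaving out each library.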

Additional observations from a re-analysis of the deposited data

How the results depend on the processing

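The count of members that passed limma's test was 0 under every alternative run, with 0 to 14 at an unadjusted p below 0.05 (14 without obesogenic library 3, 5 with array weights). The lowest adjusted p of a named member was 0.0881. Over all genes the count of 1 (Gm9836, lower) became 0 with a pseudocount of 5, 0 with no filter and 2064 with array weights (1505 higher, 559 lower), and 0 to 860 with each library left out (860 without obesogenic library 2). Pathway genes passing went from 0 to 8 with array weights, where 10.5% of all genes were called higher and 3.89% lower. With each library left out, 0 to 3 passed. Without obesogenic library 2 the shares of all genes were 4.89% higher and 1.25% lower. The labels do not say whether replicate numbers pair the libraries, and correlations of deviations over so few libraries cannot settle it. They were 0.008, 0.177 and 0.132 for same-numbered libraries, the highest value for each control library. Obesogenic library 1 correlated better with control library 3 (0.107) than with control library 1. The replicate block called 1 gene, 0 members and 0 pathway genes.

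Leaving out obesogenic library 2 turned the direction of 14 of 20 named members, and leaving out obesogenic library 3 that of Ifitm3. With 1 library left out, log2 changes ran from -0.13 to 0.99 for Ifit3, -0.086 to 1.57 for Oasl2, -0.12 to 1.59 for Oas1a, -0.22 to 2.25 for Irgm1, -0.23 to 2.11 for Gbp6, -0.74 to 1.35 for Gbp2, -0.67 to 2.61 for Gbp4, -0.60 to 1.38 for Irf1, -0.16 to 1.31 for Stat2, -1.001 to 0.026 for Ifitm3, -0.04 to 0.98 for Ifi27l2a, -0.47 to 1.09 for Bst2, -0.22 to 1.32 for Isg15, -0.066 to 1.39 for Rtp4 and -0.19 to 0.99 for Xaf1. Outside the set they ran from -1.17 to 2.18 for Tgtp1, -0.71 to 2.55 for Tgtp2, -1.85 to 0.38 for Ifit1bl1, -0.81 to 0.98 for Ptpn6, -0.16 to 1.00 for Lgals3bp and -0.15 to 0.033 for Irf3. Array weights turned the direction of Gbp2 (-0.30), Gbp4 (-0.059), Irf1 (-0.25), Bst2 (-0.26), Xaf1 (-0.21), Ptpn6 (-0.43), Ifngr2 (-0.20), Lgals3bp (-0.006) and Tgtp1 (-0.38), and rescaling without immunoglobulin genes that of Irf3 (0.028). The cause of these changes was not tested. The median change of all genes was 0.08 as deposited, -0.02 with upper-quartile scaling and 0.18 without immunoglobulin genes; obesogenic library 2 stayed above every control for 38 members under each (22.7%, 28.9% and 42.1% of all genes kept).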
